A study of Mus musculus with 50 samples.

Results

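Eif1a, Pramel6, Pramel7, Arg2 and Zfp809 were grouped as genes of the 2-cell-like state. Together they are 5 of the 19455 genes listed for mouse embryonic stem cells lacking the YTHDF proteins. They were chosen by their measured level at 0 h, as genes said to be higher in Triple_KO cells than in WT cells, so that difference is described and not tested. Each was found by its RefSeq identifier, a repeat of the same values was counted once, and distinct transcripts were added. The groups were Triple_KO (Ythdf1-/-Ythdf2-/-Ythdf3-/-), Ythdf1_KO, Ythdf2_KO, Ythdf3_KO and WT cells. All were KH2 embryonic stem cells, a C57BL/6 x 129/Sv hybrid line, kept in serum with LIF. Cells were collected at 0, 4 and 8 h of 5 µM actinomycin D, a drug that blocks transcription. Each genotype had replicates A and B, giving 4, 2 and 4 libraries for the 3 times and 50 libraries of 3′ end poly(A) RNA-seq in all. The labels do not say how many clones stood for a genotype or whether A and B were separate cultures, so p-values measure only the spread between these samples.

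A small share of cells in an embryonic stem cell culture passes through a 2-cell-like state, in which transcripts of the 2-cell embryo and of endogenous retroviruses are made. YTHDF proteins bind N6-methyladenosine (m6A), a modified base of mRNA, and YTHDF2 above all is known for speeding the loss of the mRNAs it binds. Blocking transcription lets the loss of existing mRNA be followed. Levels are in FPM, reads of a gene scaled to the library's total (RPM), with no correction for length. In these bulk samples fewer expressing cells and less RNA per cell cannot be told apart.

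The libraries held 796921 to 2341410 reads, and 1 read was worth 0.427 to 1.25 FPM. Replicates A and B differed about as much as duplicate libraries of 1 replicate did, with a median chi-square per degree of freedom of 1.40 over 45 pairs and 1.46 over 20 pairs. Embryonic stem cell markers were present: the 12 on the list summed to 2665 FPM in Triple_KO and 3175 FPM in WT cells at 0 h. The listed genes held 41.1% of the library in Triple_KO cells and 33.2% in WT cells at 8 h. The median gene tested stood 0.45 higher on the log2 scale in Triple_KO cells at that time, and 0.32 higher at 4 h. After TMM scaling these medians were 0.11 and 0.02. Changes of single genes are therefore given beside the median of all genes tested.

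Eif1a encodes a translation initiation factor that helps the ribosome scan to the start codon. It lies on chromosome 18 (GRCm38.p6, 46597704 to 46610225). At 0 h its level was 150, 167, 146 and 164 FPM in the 4 Triple_KO libraries, against 88.2, 112, 105 and 83.2 FPM in the 4 WT libraries. Every Triple_KO library was above every WT library. At 4 h it was 107 and 127 FPM in Triple_KO cells, against 31.0 and 20.7 FPM in WT cells. At 8 h it was 87.1, 84.4, 89.9 and 63.6 FPM in Triple_KO cells, against 16.0, 13.0, 20.3 and 15.0 FPM in WT cells. The groups were again apart, and the gap was wider than at 0 h.

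Pramel6 and Pramel7 encode leucine-rich repeat proteins of the PRAME family. Pramel7 is known for promoting the breakdown of UHRF1, a factor needed to keep DNA methylation, in naive embryonic stem cells. They are neighbours on chromosome 2, Pramel6 at 87506565 to 87510865 and Pramel7 at 87489088 to 87492418 (GRCm38.p6). Pramel6 had 13.5, 13.8, 14.0 and 13.5 FPM in Triple_KO libraries at 0 h, against 3.70, 3.38, 2.94 and 1.40 FPM in WT libraries. Pramel7 had 7.97, 7.20, 9.18 and 6.26 FPM in Triple_KO libraries at 0 h, against 1.23, 0, 1.18 and 0.699 FPM in WT libraries. For both genes the 0 h groups did not overlap, and the WT values rest on 17 and 5 reads in all.

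At 4 h Pramel6 was at 5.87 and 12.8 FPM in Triple_KO cells, against 0.860 and 3.19 FPM in WT cells. At 8 h it was at 6.59, 4.33, 4.46 and 2.94 FPM in Triple_KO cells, against 3.43, 1.00, 1.69 and 0 FPM in WT cells. The 8 h groups overlapped. Pramel7 at 4 h was at 5.14 and 2.79 FPM in Triple_KO cells, against 0.860 and 0.798 FPM in WT cells. At 8 h it was at 3.66, 2.16, 3.19 and 2.35 FPM in Triple_KO cells, against 0, 2.01, 1.69 and 0.880 FPM in WT cells. These 8 h groups did not overlap, but they rest on 17 and 5 reads.

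Arg2 encodes the mitochondrial arginase, which splits arginine into ornithine and urea. It lies on chromosome 12 (GRCm38.p6, 79130788 to 79156301). At 0 h it had 54.0, 34.3, 55.6 and 44.8 FPM in Triple_KO libraries, against 32.7, 34.6, 35.3 and 43.3 FPM in WT libraries, and the groups overlapped. At 4 h it had 43.3 and 49.1 FPM in Triple_KO cells, against 25.0 and 31.1 FPM in WT cells. At 8 h it had 30.8, 48.4, 44.6 and 33.6 FPM in Triple_KO cells, against 20.6, 25.1, 18.6 and 17.6 FPM in WT cells. The groups did not overlap at 4 h, with 2 libraries each, or at 8 h, which is a description without the share over all genes. In GENCODE M21 the end of Arg2 overlaps the end of Vti1b, a SNARE gene on the other strand, by 285 bases. The strand use of the counting was not given in the sources used here, so reads from that stretch cannot be told apart.

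Zfp809 encodes a KRAB zinc finger protein that binds the primer site of certain retroviruses and recruits the TRIM28 silencing complex. It lies on chromosome 9 (GRCm38.p6, 22225667 to 22254117), and 2 distinct transcripts were added. At 0 h it had 25.1, 18.8, 20.5 and 17.8 FPM in Triple_KO libraries, against 21.6, 19.4, 22.4 and 17.5 FPM in WT libraries. The groups overlapped and the means were 20.6 ± 3.24 and 20.2 ± 2.21 FPM (SD, n = 4 libraries each), so the reason given for picking Zfp809 was not seen in these libraries. At 4 h it had 7.34 and 11.2 FPM in Triple_KO cells, against 3.44 and 3.19 FPM in WT cells. At that time it had 6.11 and 6.20 FPM in Ythdf1_KO, 5.40 and 7.35 FPM in Ythdf2_KO and 2.56 and 4.02 FPM in Ythdf3_KO cells (lowest and highest of 2 libraries each). The libraries of Triple_KO, Ythdf1_KO and Ythdf2_KO cells all lay above those of WT cells, and those of Ythdf3_KO cells overlapped them. With 2 libraries each, these values rest on 30 reads in Triple_KO, 17 in Ythdf1_KO, 17 in Ythdf2_KO and 8 in WT cells. At 8 h it had 9.52, 3.61, 3.83 and 5.89 FPM in Triple_KO cells, against 1.14, 4.01, 5.91 and 4.40 FPM in WT cells, which overlapped.

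**Figure D1:**
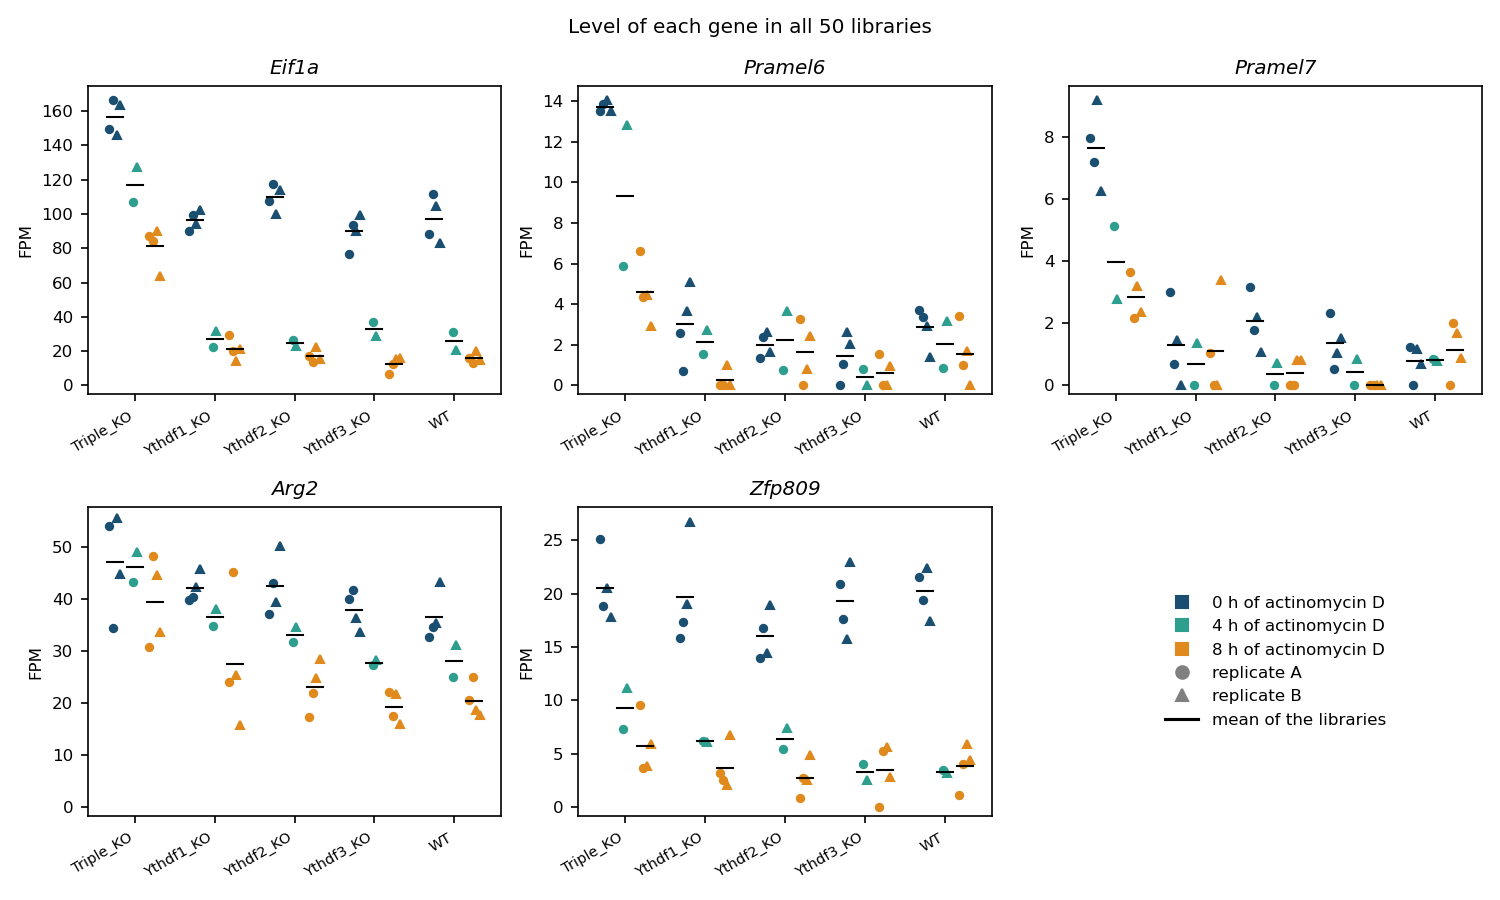
Level in FPM (vertical axis) of each gene by genotype (horizontal axis) and hour of actinomycin D (colour); each point is 1 library, circles are replicate A, triangles replicate B, and bars are means. Eif1a at 8 h sits between 63.6 and 89.9 FPM in Triple_KO cells and between 13.0 and 20.3 FPM in WT cells, while Zfp809 at 0 h overlaps in all genotypes.

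The 0 h differences, Triple_KO over WT, were 0.69 ± 0.09 for Eif1a, 1.98 ± 0.41 for Pramel6, 2.34 ± 0.48 for Pramel7, 0.35 ± 0.14 for Arg2 and 0.02 ± 0.20 for Zfp809 (log2 of FPM + 1 ± SE, n = 2 replicates). These chose the genes and carry no test. Of all genes, 21.9% passed the test in that contrast. The pseudocount of 1 understates the change of Pramel6 and Pramel7, whose levels are low.

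In the single knockouts none of the 5 genes was called against WT at 0 h by limma or by edgeR. Pramel6 and Pramel7 reached the 5 FPM needed for the test only in Triple_KO cells, so for them this says little. Over all genes, the share called was 2.62% for Ythdf1_KO, 8.2% for Ythdf2_KO and 4.46% for Ythdf3_KO cells. Of the 15 values only that of Eif1a in Ythdf2_KO cells passed before adjustment (0.18 ± 0.09, limma unadjusted p = 0.0412, limma adjusted p = 0.223). Eif1a averaged 96.6 ± 5.50 FPM with Ythdf1_KO, 110 ± 7.76 FPM with Ythdf2_KO and 89.9 ± 9.63 FPM with Ythdf3_KO, against 96.9 ± 13.4 FPM in WT cells (SD, n = 4 libraries each). Pramel7 averaged 1.29 ± 1.28 FPM with Ythdf1_KO, 2.06 ± 0.867 FPM with Ythdf2_KO and 1.36 ± 0.760 FPM with Ythdf3_KO, against 0.777 ± 0.571 FPM in WT cells. For both genes the libraries of each single knockout overlapped those of WT cells. The WT libraries of this comparison also entered the choice of the genes.

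The 4 h and 8 h libraries took no part in that choice. With transcription blocked they hold RNA left from 0 h, however. Their levels can carry over the 0 h difference and are not independent of the choice. At 8 h, Eif1a and Arg2 were higher in Triple_KO than in WT cells by limma, where 30.6% of all 9078 genes tested were called and 29.2% were called higher. Eif1a was higher by 2.27 ± 0.19 (limma adjusted p = 5.77e-16), at the 99.3 percentile of all genes. Arg2 was higher by 0.90 ± 0.20 (limma adjusted p = 2.95e-04), but its value after TMM scaling was 0.53 (limma adjusted p = 0.0508). Pramel6 was at 1.30 ± 0.55 (limma adjusted p = 0.0623), Pramel7 at 0.94 ± 0.54 (limma adjusted p = 0.187) and Zfp809 at 0.50 ± 0.40 (limma adjusted p = 0.359). Without replicate A of WT, Pramel6 had an adjusted p of 0.0489. Eif1a and Arg2 reached 5 FPM in all 30 replicate means. Pramel6 reached it in 5 means and Pramel7 in 3, all of them in Triple_KO cells, so they entered the test only through the group where they are high. Genes called higher in Triple_KO cells are therefore counted over Eif1a, Arg2 and Zfp809, which also reached 5 FPM outside Triple_KO cells.

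At 4 h a replicate is 1 library, and on simulated data the planned fit, which weighs all replicate means alike, made too many false calls there. Values weighted by the spread at each time are therefore given beside it. Eif1a was higher in Triple_KO than in WT cells by 2.16 ± 0.19 (limma adjusted p = 1.03e-14, weighted 9.34e-15). Arg2 was higher by 0.71 ± 0.20 (limma adjusted p = 0.00567, weighted 0.0360), but not after TMM scaling (limma adjusted p = 0.164). Pramel6 was at 1.80 ± 0.55 (limma adjusted p = 0.00986, weighted 0.0499). Pramel7 at 1.40 ± 0.54 (limma adjusted p = 0.0457, weighted 0.158) and Zfp809 at 1.22 ± 0.40 (limma adjusted p = 0.0167, weighted 0.0704) did not pass in the weighted fit. Of Eif1a, Arg2 and Zfp809 the planned fit thus called 3, where it called 23.6% of all genes higher. The weighted fit called 2 of these genes, where it called 1362 of all 9078 genes tested higher. Pramel6 and Pramel7 had again entered only through Triple_KO cells. Without replicate B of Triple_KO or without replicate A of WT, Arg2 and Pramel6 were no longer called in the planned fit at 4 h, with adjusted p between 0.0897 and 0.200.

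Triple_KO cells were also set against the mean of the 3 single knockouts at 8 h. Of the 3 genes that reached 5 FPM outside Triple_KO cells, 2 were higher by limma, where 43.4% of all genes were called higher and the median was 0.51. These were Eif1a, higher by 2.25 ± 0.15 (limma adjusted p = 7.67e-20), and Arg2, by 0.76 ± 0.16 (1.08e-04). Zfp809 was at 0.76 ± 0.33 (limma adjusted p = 0.0503). Pramel6 had a value of 1.77 ± 0.45 (limma adjusted p = 9.18e-04) and Pramel7 one of 1.52 ± 0.44 (0.00401), and both had entered the test only through Triple_KO cells. Arg2 was at 0.32 after TMM scaling (limma adjusted p = 0.166). Without replicate A of Triple_KO, Pramel6 had an adjusted p of 0.0550, and without replicate B, Pramel7 had one of 0.0560. At 8 h Eif1a stood at 21.2 ± 6.18 FPM in Ythdf1_KO, 17.2 ± 3.76 FPM in Ythdf2_KO and 12.6 ± 4.12 FPM in Ythdf3_KO cells, while Pramel7 had no read in the 4 Ythdf3_KO libraries.

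**Figure D2:**
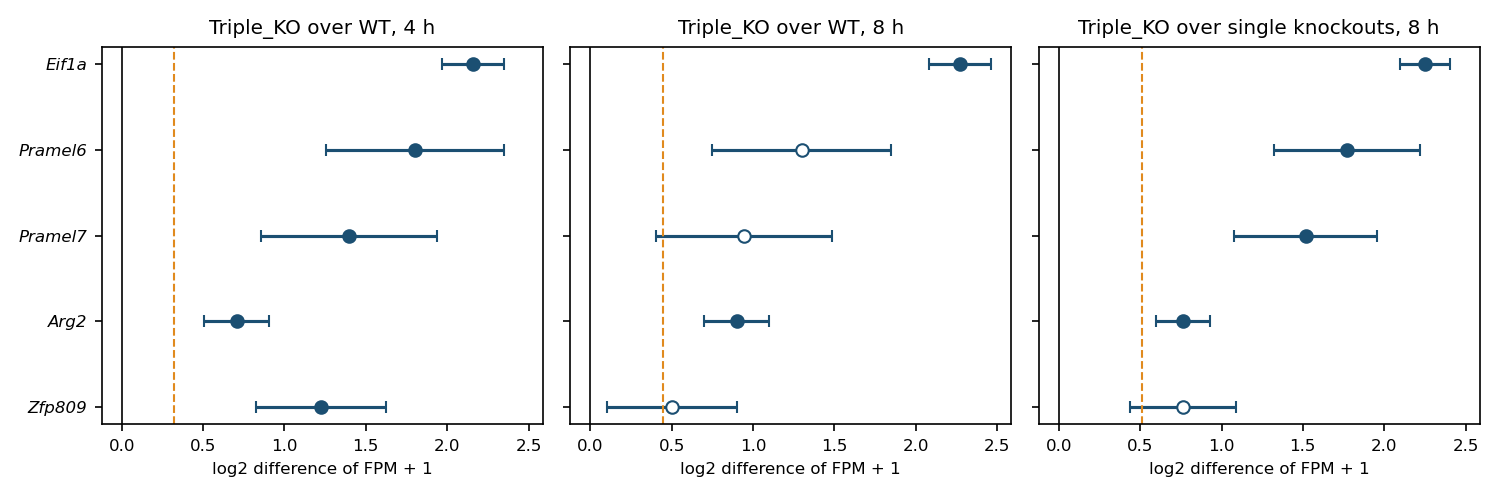
Difference in log2(FPM + 1) (horizontal axis) for each gene in 3 comparisons; points are limma estimates from the planned fit, bars are SE, filled points had an adjusted p under 0.05, and the dashed line is the median of all genes tested. Eif1a lies at 2.16, 2.27 and 2.25, far to the right of the medians of 0.32, 0.45 and 0.51.

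The loss of these RNAs over 8 h was tested in the single knockouts, which did not choose the genes. Eif1a fell by -2.53 ± 0.11, Zfp809 by -2.35 ± 0.23 and Arg2 by -0.83 ± 0.12 (limma adjusted p from 3.50e-31 to 2.76e-09). Over all genes 78.4% were called lower and the median was -0.84. Pramel6 was at -0.84 ± 0.32 (limma adjusted p = 0.0130) and Pramel7 at -0.85 ± 0.31 (0.0119), but both had entered the test only through Triple_KO cells. At 8 h Pramel6 had 1, 8 and 3 reads and Pramel7 4, 2 and 0 reads in Ythdf1_KO, Ythdf2_KO and Ythdf3_KO cells. After TMM scaling, which moved the median to -0.20, Eif1a and Zfp809 were still called and the other 3 were not, with limma adjusted p of 0.165 for Pramel6, 0.102 for Pramel7 and 0.271 for Arg2. Pramel6 and Pramel7 also lost their call when 1 replicate of a single knockout was left out, with adjusted p up to 0.115 and 0.103.

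As a description, 51.9% of the 0 h level of Eif1a was left at 8 h in Triple_KO cells, against 22.0% for Ythdf1_KO, 15.7% for Ythdf2_KO and 14.0% for Ythdf3_KO, and 16.6% for WT cells. At 4 h, 74.8% was left in Triple_KO and 26.7% in WT cells. Arg2 kept 83.4% at 8 h in Triple_KO and 56.0% in WT cells. Zfp809 kept 27.8% in Triple_KO and 19.1% in WT cells. On the log2 scale the median gene tested changed over 8 h by -0.39 in Triple_KO and -0.81 in WT cells. Eif1a changed by -0.95 and -2.53, Zfp809 by -1.76 and -2.24 and Arg2 by -0.26 and -0.81. Arg2 was thus near the median gene in both, at the 58.3 and 49.9 percentiles. Between 4 h and 8 h the change in Triple_KO cells minus that in WT cells was 0.12 ± 0.27 for Eif1a (limma adjusted p = 0.914), -0.51 ± 0.77 for Pramel6 (0.852), -0.46 ± 0.77 for Pramel7 (0.870), 0.19 ± 0.28 for Arg2 (0.845) and -0.72 ± 0.56 for Zfp809 (0.661). None of the 5 genes was called in this comparison by limma or edgeR and none had an unadjusted p under 0.05, where 1.08% of all genes were called. Pramel6 and Pramel7 had entered it only through Triple_KO cells.

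**Figure D3:**
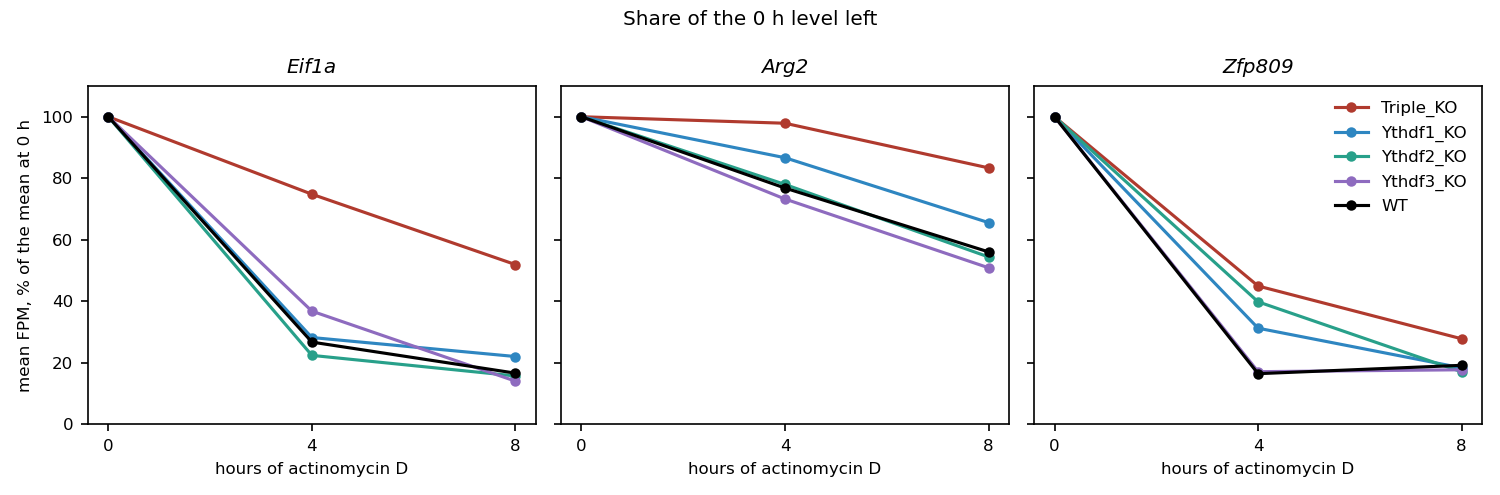
Mean FPM as a percentage of the mean at 0 h (vertical axis) against hours of actinomycin D (horizontal axis) for Eif1a, Arg2 and Zfp809, with 1 line per genotype. The Triple_KO line of Eif1a ends at 51.9% and those of the other genotypes between 14.0% and 22.0%.

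Since YTHDF proteins bind m6A, often near stop codons, the letters GGACT, a core of the m6A consensus, were searched on the sense strand in the 100 bases on each side of the stop codon. GENCODE M21 transcripts matched to the listed RefSeq identifiers were used. The motif was in 23.6% of 17679 genes' windows. Of the 5 genes only Pramel7 held it there, 42 bases after the stop codon. In Pramel6 and Zfp809 the nearest match was 544 and 589 bases before the stop codon, in Eif1a 615 bases before it, and the Arg2 transcript held none. The matches are shown with the motif in capitals, because they are the nearest to the stop codon in these transcripts. A match is a description and not a modified site.
Pramel7: aaattcctagGGACTggtctctcat
Pramel6: tgtcaattacGGACTgccctaggct
Zfp809: atgaatgtaaGGACTgcgagaaagt

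The listed transcripts of the 2-cell embryo, such as the Zscan4 cluster and the Trim43 genes, were read beside these genes. Of 52 on the list 36 were listed, and their summed level at 0 h was 52.1 to 76.1 FPM in Triple_KO libraries, against 13.5 to 25.4 FPM in WT libraries. The mean was 28.7 FPM for Ythdf1_KO, 22.2 FPM for Ythdf2_KO and 23.3 FPM for Ythdf3_KO cells. Much of the sum outside Triple_KO was Alyref2, an mRNA export adaptor copy, with 13.2 FPM in Triple_KO and 13.7 FPM in WT cells. Without it the mean was 49.9 FPM in Triple_KO and 4.86 FPM in WT cells. It was 14.2 FPM for Ythdf1_KO, 9.61 FPM for Ythdf2_KO and 6.92 FPM for Ythdf3_KO cells. Libraries then ran from 11.5 to 15.9 FPM for Ythdf1_KO and from 3.53 to 6.29 FPM for WT, while Ythdf2_KO and Ythdf3_KO overlapped WT. At 0 h 27 of the 28 with a read had a higher mean in Triple_KO than in WT cells, where 58.2% of all genes with a read did, and 59.3% of those under 5 FPM in every group. Single genes rest on few reads: Trim43a had 60 reads in Triple_KO and 3 in WT libraries, Zscan4a 19 and 0, Tcstv3 10 and 0, and Duxf3, a regulator of the state, 0 and 0. These genes are many near-identical copies, and how reads with several matches were treated was not given.

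The 8 h libraries did not choose the genes, but they hold RNA left from 0 h. At 8 h the sum was 28.1 to 41.0 FPM in Triple_KO and 16.7 to 25.1 FPM in WT cells. Of the 29 with a read 22 had a higher mean in Triple_KO cells. Among all genes with a read 69.5% did, and 55.5% of those under 5 FPM in every group. Trim43a, Trim43b, Gm5662 and Alyref2 of this list are not under 5 FPM in every group. Alyref2 made up much of the WT sum, with 13.6 FPM in WT and 11.0 FPM in Triple_KO cells. Without it the sum was 18.8 to 27.1 FPM in Triple_KO and 3.38 to 9.13 FPM in WT libraries. Only 4 of the list could be tested. Trim43a and Gm5662 no longer reached the filter without replicate B of Triple_KO, and Trim43b not without either replicate of Triple_KO. Like Pramel6 and Pramel7, these genes thus entered the test through Triple_KO cells, where they are high, so their values are no independent evidence. Trim43a was higher by 1.64 ± 0.55 (limma adjusted p = 0.0175), which reached 0.0698 when 1 replicate was left out. Gm5662 was at 1.35 ± 0.58 (limma adjusted p = 0.0659), Trim43b at 1.07 ± 0.55 (0.130) and Alyref2 at -0.26 ± 0.29 (0.534).

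**Figure D4:**
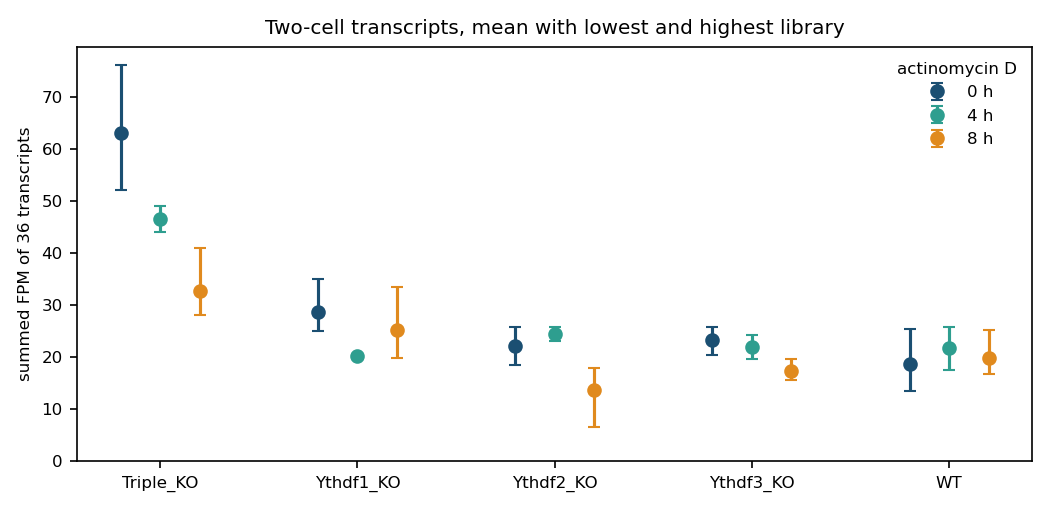
Summed FPM of the 36 listed transcripts of the 2-cell embryo (vertical axis) by genotype (horizontal axis) and hour of actinomycin D (colour); points are means and bars run from the lowest to the highest library. Triple_KO at 0 h spans 52.1 to 76.1 FPM and WT at 0 h 13.5 to 25.4 FPM.

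Other lists were read in Triple_KO against WT cells at 8 h, beside the 29.2% of all genes called higher and the median of 0.45. Of 4 tested activators of the state 2 were higher, Dppa2 by 1.03 and Dppa4 by 0.44, with a median of 0.29 for the 4. Of 28 repressors 10 were higher and 1 lower, with a median of 0.33, and Chaf1b, a subunit of the chromatin assembly factor CAF-1, was higher by 1.37. Among 12 genes of the naive state and partners of Pramel7, 6 were higher, with a median of 0.34 for the 12. Dppa3 was higher by 3.20 and Eloc, the elongin C subunit of cullin complexes, by 0.86.

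Of 22 tested genes on a list for start codon selection, with 2 that share 1 set of values counted once, 14 were higher. The median was 0.42, and among the higher were Eif3g at 1.06 and Eif2s2 at 0.79. Of 17 arginine and polyamine enzymes 7 were higher, with a median of 0.38, and Srm, the spermidine synthase, was higher by 0.77. Of 22 genes of KRAB zinc finger silencing 6 were higher, with a median of 0.33, among them Setdb1, the histone H3 lysine methyltransferase, at 1.02. Of 25 other PRAME family genes listed 2 could be tested, and Pramel13 was higher by 1.14 and Pramel12 by 1.63. With 1 replicate left out, the adjusted p reached 0.0950 for Pramel13, 0.131 for Pramel12 and 0.125 for Dppa4, and after TMM scaling Pramel12 (0.0640) and Dppa4 (0.821) were not called. Within 5 listed genes on each side, 1 of 6 tested beside Eif1a (Tmed7) and 1 of 4 beside Arg2 (Vti1b) were called higher. Beside Zfp809 these were 2 of 5, Elof1 and Pigyl, and beside Pramel6 and Pramel7 each 0 of 1. Over all genes 29.2% were called higher. Vti1b overlaps the end of Arg2, and reads from that stretch cannot be told apart.

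Markers of other cells were read at 0 h as well. The 8 trophectoderm markers summed to 285 to 322 FPM in Triple_KO and 114 to 130 FPM in WT libraries. These sums were 185 to 206 FPM in Ythdf1_KO, 186 to 201 FPM in Ythdf2_KO and 68.9 to 87.8 FPM in Ythdf3_KO libraries. Krt8 averaged 145 FPM in Triple_KO and 75.4 FPM in WT cells, Krt18 101.2 and 34.4 FPM, and the transcription factor Tfap2c 40.4 and 7.22 FPM. Of defining factors, Cdx2 was at 4.26 and 1.02 FPM, Eomes at 3.69 and 3.78 FPM and Elf5 at 0 in both. The 12 feeder fibroblast markers summed to 969 to 1078 FPM in Triple_KO and 725 to 819 FPM in WT libraries. In Ythdf1_KO, Ythdf2_KO and Ythdf3_KO libraries these were 921 to 979, 675 to 703 and 684 to 713 FPM. The 8 primed or differentiating markers summed to 17.7 to 31.3 FPM in Triple_KO and 11.1 to 14.0 FPM in WT libraries. In Ythdf1_KO, Ythdf2_KO and Ythdf3_KO libraries these were 15.4 to 22.9, 12.4 to 19.2 and 13.9 to 16.3 FPM. The 10 primitive endoderm markers summed to 298 to 345 FPM in Triple_KO and 302 to 347 FPM in WT libraries, which overlapped. Most of this was Sparc, with a mean of 284 FPM in Triple_KO and 264 FPM in WT cells. Among defining factors, Gata6 was at 1.43 and 1.33 FPM, Gata4 at 0.938 and 1.51 FPM and Sox17 at 1.35 and 0.469 FPM. Only 3 primitive endoderm markers could be tested, and 2 were lower in Triple_KO cells. Of the 11 embryonic stem cell markers tested 5 were lower and 0 higher. Beside these counts, 7.65% of all genes were called lower and 14.3% higher in Triple_KO against WT cells at 0 h. The part of these cells in the values above was not tested.

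The genes most like each one were named by Pearson's r over the 30 replicate means, after the mean at each time was taken away. All points share genotypes and libraries, so r is a description. For Eif1a they were Mrps2 (0.95), Rnasek (0.94) and Avpi1 (0.94), and for Arg2 Vti1b (0.93), Slc39a1 (0.90) and Hspb8 (0.89). The ends of Arg2 and Vti1b overlap, and reads from that stretch cannot be told apart, so their r may rest partly on shared reads. Pramel6 was most like Rhox5 (0.83), Gm5662 (0.83) and Prep (0.82), and Pramel7 like an RNA listed without a gene name (0.86), Fzd9 (0.85) and Prep (0.85). Zfp809 was most like Cdpf1 (0.79), Icmt (0.77) and Med9 (0.77). Between the 5 genes r ran from 0.44 to 0.78.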

How the data were processed

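The deposited values were FPM, the same unit as RPM, scaled by the authors to each library's total and listed per RefSeq transcript. CASAVA 1.8.2, Bowtie2 and mm10 are named, per the submitters' processing notes. Of the 22338 transcripts listed, 21729 were named through RefSeq GRCm38.p6 and 120 through GENCODE M21, and 2169 repeats were dropped. In all 50 libraries 100% of values were whole reads within 0.1 read.

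Duplicate libraries were averaged as log2(FPM + 1). Genes with at least 5 FPM in 2 or more replicate means were tested with limma 3.58 (R 4.3; empirical Bayes with trend, Benjamini-Hochberg over all genes tested, 0.05), on 10 replicate means for the 0 h contrasts and on 30 for the others. There were 8 tested comparisons. edgeR 4.0 quasi-likelihood on the whole reads was an alternative, and called 3082 genes in Triple_KO against WT at 8 h.

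In all, 3 weightings of the replicate means were tried: equal weights, as planned, weights by the number of libraries, and weights by the spread at each time. The last 2 were added after simulated data showed too many false calls at 4 h with equal weights, and with results of these genes known. On simulated data only the last kept false calls low at both 4 h and 8 h. Equal weights stayed the principal fit, since choosing among fits with their p-values in view would bias the calls.

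The genes and the lists were chosen with earlier results of these data known. Named were the 5 genes, the 4 members of each list with the smallest p at 8 h (examples are drawn from these; single 2-cell transcripts given by reads, and markers, were chosen after their values were seen), the 3 genes most like each gene, and neighbours that passed the test. Alternatives were another pseudocount, no filter, TMM scaling, the highest transcript of a gene, a replicate block, other samples in the fit and leaving out each replicate. Replicate letters did not pair the samples. Genes with near-identical copies cannot be told apart by these reads.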

Additional observations from a re-analysis of the deposited data

Results flagged for a closer look

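Pramel6 in Ythdf1_KO cells at 8 h was at 1.01 FPM in 1 library of replicate B and at 0 in the other 3, so that library stood apart from its group. The value is 1 read. In all, 49 groups of 4 libraries were looked at, and chance sets a library apart in about 1 of 20 groups.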

How the results depend on the processing

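Eif1a kept its call in Triple_KO over WT under all alternatives run. Leaving out each replicate gave it 2.15 to 2.40 at 8 h and 1.88 to 2.44 at 4 h. With 2 replicates and few reads for Pramel6, Pramel7 and Zfp809, values near the threshold moved across it, and the cause was not tested.

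TMM scaling gave 1728 genes (1062 higher, 666 lower) for Triple_KO over WT at 8 h, 1856 (1142 higher, 714 lower) against the single knockouts and 37 for the change from 4 h to 8 h. It put Arg2 at 0.53 at 8 h and 0.39 at 4 h, and at 4 h Pramel7 at 1.16 and Zfp809 at 0.94, none called. From the lists, Tfcp2l1 (-0.045) and Got1 (-0.022), called higher at 8 h before, turned in sign and were not called.

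At 4 h, weights by the number of libraries gave 1393 genes, weights by the spread at each time 1518 and a fit on 4 h alone 1474. Pramel6 (1.80) had adjusted p of 0.0520, 0.0499 and 0.0800 under these, and Zfp809 (1.22), not called in any, had 0.0873, 0.0704 and 0.104. Pramel7 (1.40) was not called with either weighting or with no filter, nor at 1.70 with a pseudocount of 0.5 or at 2.14 with edgeR. Pramel6 was not called at 4 h with no filter (1.80; adjusted p = 0.0519), and at 8 h it was called with weights by the number of libraries (1.30; adjusted p = 0.0221). Fits on 1 time alone gave no value for Pramel7, nor for Pramel6 at 8 h.

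For the change from 4 h to 8 h, no filter gave 61 genes, the weights 45 and 22 and a fit on these times alone 38. At 0 h, no filter gave 57 genes in Ythdf1_KO, 312 in Ythdf2_KO and 102 in Ythdf3_KO cells, and a fit on all times 20, 138 and 59.

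Leaving out each replicate gave 1697 to 2196 genes for Triple_KO over WT at 8 h, 1371 to 1903 at 4 h, 2430 to 3971 against the single knockouts, 12 to 57 for the change from 4 h to 8 h, 105 to 218 for Ythdf1_KO, 350 to 553 for Ythdf2_KO and 173 to 348 for Ythdf3_KO. Pramel6 ran from 0.87 to 1.73 at 8 h and from 1.22 to 2.39 at 4 h, where Pramel7 ran from 1.37 to 1.75, Arg2 from 0.55 to 0.86 and Zfp809 from 0.95 to 1.49.

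The replicate block gave 2794 genes at 8 h and 2464 at 4 h. The letters did not pair the samples (r of deviations -0.02 to 0.04 over 30 pairs). With the block no call of the 5 genes changed except that of Zfp809 against the single knockouts (0.76; adjusted p = 0.0475). Zfp809 was also called there with a pseudocount of 0.5 (0.90; adjusted p = 0.0403), with weights by the number of libraries (0.0228) and without replicate B of any 1 single knockout (lowest adjusted p = 0.0188).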
